A study of Vitis vinifera with 6 samples.

Results

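On grape chromosome 3, a run of neighbouring gene models held many transcripts that were lower in berry skin after UV-C light, and the run was described here model by model. The probe sets are named by chromosome, annotation block and running number, as in CHR3_JGVV38_312_T01, and the run comprises the numbers 300 to 345 of block 38. This range was chosen by the measured difference between UV and dark in these same arrays, so every count and change of its members below is a description, with no p-value attached. Of the 46 numbers, 42 had a probe set, each of 4 probes, out of 29549 probe sets on the array. Numbers 340, 341, 343 and 344 had none. The identifiers were matched against a RefSeq gene table of 29591 entries and 0 of them matched, so no gene name, protein or function can be given to any member, and no sequence of them was at hand. A label such as skin can likewise not be checked against marker genes, since markers could not be found under these identifiers.

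Skin of Pinot Noir berries (Vitis vinifera) was compared between 2 groups of 3 samples, whose replicates came from different clusters of a vineyard, with no genetic change in either group. In the UV group, clusters received 1 hour of UV-C from a 253.7 nm lamp at 50 cm. In the dark group, clusters lay beside them under a box for 1 hour, so the groups may also differ in other light that the box kept out. No source used here gives the age of the berries or the time from lamp to sampling. Total RNA of each sample was labelled with Cy3 and hybridised to a one-colour NimbleGen array.

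UV-C light is absorbed by DNA, in which it joins neighbouring pyrimidines, and in grape skin it is known to induce stilbene synthase and with it resveratrol and related defence compounds. Plant genes that lie next to each other often arose by tandem duplication, and such copies can be expressed alike. Short probes can also bind the transcripts of a similar copy, so the signals of neighbours may be shared. In a whole tissue, fewer cells of a type and less RNA per cell cannot be told apart.

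Median intensity per array ran from 8967 to 11200 units, and the mean of the control probes of random sequence from 736 to 882 units. A set was taken as above background where its intensity passed the random-probe mean plus 2 SD, which lay between 1156 and 1434 units. The same-group arrays correlated at 0.989 to 0.995 and arrays of different groups at 0.941 to 0.966, over all probe sets. The dark arrays had neighbouring positions on the slide and the UV arrays the next ones, so slide position and treatment cannot be told apart.

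The members went from models near or at background to some of the brightest of the array. The median member had a dark intensity of 2641 units, against 10349 units over all sets. Above background on all 6 arrays were 21 members (50.0%), against 82.8% of all sets, while 10 members were at background throughout and 11 were above it on some arrays. In the dark alone, 28 members were above background on all 3 arrays. The brightest was model 303, at 55599 ± 2248 units (SD, n = 3) in the dark, percentile 98.8 of all sets.

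After UV, 20 of the 42 members were called lower, 2 were called higher and 20 were not called (limma, Benjamini-Hochberg adjusted p under 0.05). Over all sets, 20.9% were called lower and 15.8% higher. The median log2 change of the members, UV minus dark on the normalized scale, was -0.26, against -0.05 over all sets. In 12 members the level was lower by over 1 on the log2 scale, a size that 2.72% of all sets reached. In 23 members all 3 UV arrays lay below all 3 dark arrays, as they did in 32.0% of all sets. Since the range was chosen on this contrast, nothing is read from these shares. Limited to sets above background on all 6 arrays, 8 of 21 members were called lower and 7 by over 1, against 24.9% and 2.85% of all sets under the same limit. That limit removes models that ended at background after UV. The median of the members depended on which of them were tested and on the processing: it was -0.13 over those 21, -0.16 with no background taken off, -0.48 without scaling between arrays and -0.84 over the 22 members held in the authors' value table.

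**Figure D1:**
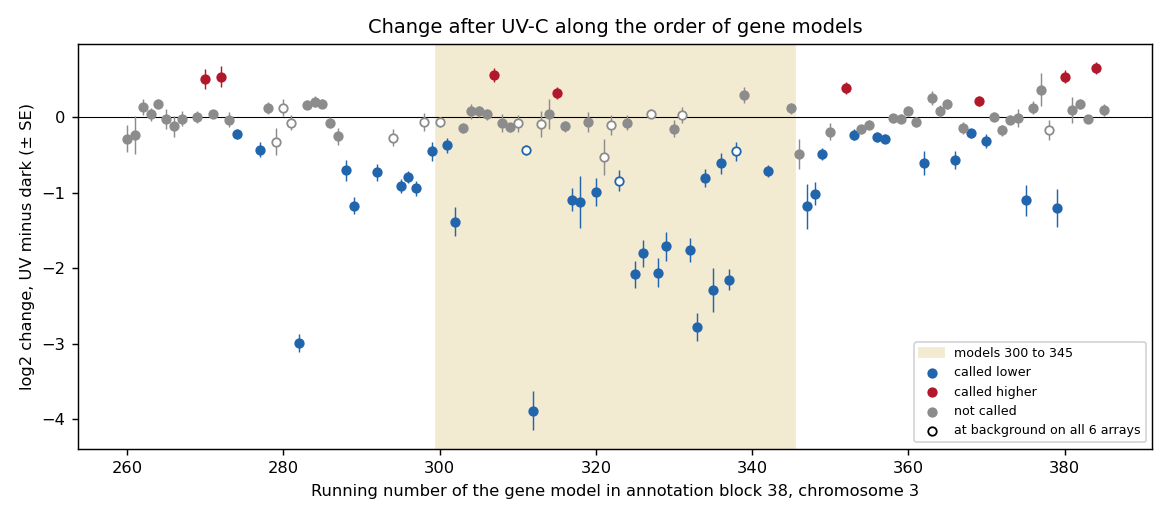
The horizontal axis is the running number of the gene models of block 38 from 260 on, and the vertical axis is the fitted log2 change, UV minus dark, with its standard error as a bar (3 arrays per group). Colours give the call, open circles are models at background on all 6 arrays, and the shaded band holds the 42 members, with model 312 lowest at -3.89 and a dense group of changes near or below -2 between 325 and 337.

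The deepest single fall was that of model 312. Its intensities were 28618, 31178 and 30905 units on dark arrays 1, 2 and 3, and 1681, 3450 and 2442 units on UV arrays 1, 2 and 3. The groups were far apart, and all 3 UV arrays were still above background. The fitted change was -3.89 (SE 0.26), a 14.8-fold drop, the lowest fitted value of all 29549 sets. With the mean of the random probes subtracted it was -4.09, and model 333 was then lower. Models 310, 311 and 313 beside it were at background on all 6 arrays.

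The densest group of large falls lay between models 325 and 337. Model 325 measured 8686, 4871 and 6533 units in the dark and 1460, 2120 and 1891 units after UV. Model 326 measured 7424, 4065 and 5769 units in the dark and 1576, 2194 and 1754 after UV. Model 328 measured 8102, 4662 and 6880 units in the dark and 1403, 2108 and 1953 after UV. In all 3 models every UV array lay below every dark array and above background, and their changes were -2.08 (SE 0.18), -1.80 (SE 0.18) and -2.06 (SE 0.19). The intensity of model 325 was 0.950 to 1.07 times that of model 328 over the 6 arrays and 0.926 to 1.20 times that of model 326, and model 326 had 0.839 to 1.12 times the intensity of model 328. The deposited intensities of other members also kept ratios within a narrow range. Model 333 was at 0.651 to 0.764 times model 337, and model 326 at 1.89 to 2.31 times model 333. No UV array of model 333 was above background. On UV array 1, models 325, 326 and 328 were above it but read 1460, 1576 and 1403 units, against a random-probe mean of 813 units. All these ratios thus include background signal and do not show a steady ratio of transcripts. The fitted changes differed, at -2.78 for model 333, -2.15 for model 337 and -1.80 for model 326. Probe sequences were not used here, so it was not tested whether these sets detect the same transcripts. The model between them, 327, was at background on all 6 arrays.

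Models 332 to 338 formed the longest unbroken row of calls, 7 of 7 lower. Model 335 had 7092, 4008 and 5769 units in the dark and 1152, 2070 and 1244 after UV. Its change was -2.29 (SE 0.29), with UV replicate 2 higher than the other UV arrays. Model 337 had 4969, 3035 and 4003 units in the dark and 1071, 1332 and 1233 after UV, a change of -2.15 (SE 0.14). For both models 2 of the 3 UV arrays were above background, and the groups did not overlap. Model 332 had 3445, 2392 and 3000 units in the dark and 982, 1397 and 1123 after UV, with 1 UV array above background and a fitted change of -1.76 (SE 0.16). As some UV values were at background, the size of these changes depended on its treatment. With no background taken off the changes of models 332, 335 and 337 were -1.18, -1.77 and -1.54, and with the mean of the random probes subtracted they were -2.31, -2.69 and -2.67.

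Model 333 dropped from a detected level to background. It had 3544, 2143 and 3057 units in the dark and 767, 950 and 803 units after UV, and no UV array was above background. Its fitted change of -2.78 (SE 0.19) is set by the treatment of background, being -1.62 where no background was taken off and -4.64 where the mean of the random probes was subtracted. The dim side was then set to the lowest signal that counted as above background on each UV array, on values from which no background was taken off, and its level was at least 2.01-fold lower. The remaining models of this row, 334, 336 and 338, were called lower by less than 1. Models 334 and 336, each above background on 2 UV arrays, were lower by 0.80 and 0.61 on the log2 scale, and model 338 was at background on all 6 arrays.

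Model 329 counts among the large falls by its fit alone. It had 1563, 1114 and 1523 units in the dark and 710, 838 and 736 after UV. The UV values were below all dark values, but 2 of the dark arrays and none of the UV arrays were above background, and no fold above 1 could be bounded. Its fitted change was -1.71, against -0.72 with no background taken off and -3.22 with the mean of the random probes subtracted. Model 320, also above background on 2 dark arrays and no UV array, had a fitted change of -0.99. Its dark replicate 2, at 1233 units, was below the limit of 1296 units, so no lower bound of the fold is given for it.

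Between the deepest fall and the dense group lay the bright models 317 and 318. Model 317 had 23510, 15681 and 17574 units in the dark and 6741, 9639 and 8806 after UV. The groups did not overlap, and the change was -1.09 (SE 0.15). Model 318 had 34098, 23742 and 25487 units in the dark and 6721, 14778 and 17459 after UV. Here the UV arrays disagreed most of all 12 large falls: against the dark mean they moved by -1.93, -0.84 and -0.60. The fitted change was -1.12 (SE 0.34), and the call was lost when UV replicate 2 was left out (-1.26), when dark replicate 1 (-1.02), 2 (-1.16) or 3 (-1.21) was left out, and when the mean of the random probes was subtracted (-1.14) or the replicate number was a block (-1.12). Leaving out UV replicate 1 kept the call but moved the change to -0.71, so that the model was then lower by less than 1.

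Near the start of the range, model 302 had 5838, 3826 and 5001 units in the dark and 1512, 2334 and 2324 after UV, a change of -1.38 (SE 0.19) with no overlap between the groups. It was followed by a stretch of 8 models, 303 to 310, of which none was called lower. This stretch held several of the bright members. The dark means of models 303, 306 and 309 were 55599, 44697 and 52607 units, and their changes were -0.14, 0.04 and -0.13.

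Only 2 members were called higher. Model 307 went from 2521, 2062 and 2255 units in the dark to 2438, 3018 and 2908 after UV. The deposited intensities of the groups overlap. On the normalized scale all UV arrays lay above all dark arrays, with a change of 0.56 (SE 0.09). Model 315 went from 38765, 33595 and 36184 units to 47970, 46163 and 38994, so that the lowest UV array stood just above the highest dark array. Its change was 0.32 (SE 0.08). Without scaling between arrays neither model was called, at 0.40 and 0.30. Leaving out any array but UV replicate 3 ended the call of model 315 as well, at 0.28 to 0.33.

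The other members can be summarised. The 8 models lower by up to 1 were 301, 311, 320, 323, 334, 336, 338 and 342, with changes from -0.99 to -0.37 and a median dark intensity of 1608 units. Models 311, 323 and 338 of these were at background on every array, so no fold is given for them. Model 342 had the most even UV arrays of these 8, with 2463, 2163 and 2846 units in the dark and 1448, 1743 and 1554 after UV. The 20 models that were not called had fitted changes from -0.52 to 0.30, and 7 of them were at background throughout.

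**Figure D2:**
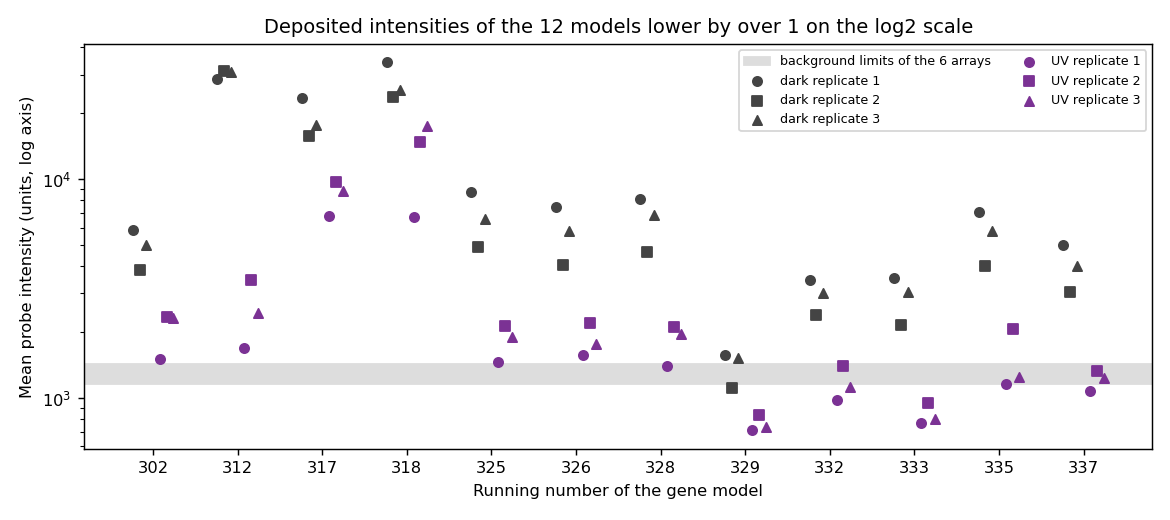
Each column is 1 of the 12 members lower by over 1, the vertical axis is the deposited mean probe intensity on a log axis, and each symbol is 1 array, dark in grey and UV in purple. The grey band spans the background limits of the 6 arrays, and all UV symbols of models 329 and 333 lie below it while those of models 312, 317 and 318 stay above.

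Most of the large falls lay at dark intensities of 2000 to 10000 units, below the median of 10349 units over all sets. The Spearman correlation of change with normalized dark level was -0.08 over the 42 members. It was 0.12 over the 28 members above background on all dark arrays. Among members of 2000 to 10000 units in the dark, 10 of 15 were called lower and 8 by over 1, with a median log2 change of -1.38. Of all sets in this intensity class, 24.5% were called lower and 3.95% by over 1. Among the 10 members above 10000 units, 3 were called lower, all by over 1, against 24.4% and 2.95% of all such sets, and the median was -0.05. Among the 17 members under 2000 units, 7 were called lower and 1 by over 1, against 6.64% and 0.384% of all such sets, and the median was -0.15.

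In all 12 members lower by over 1 the 3 UV arrays lay below the 3 dark arrays on the normalized scale. The same held in all 803 such sets of the whole array, so this agreement comes with the call and nothing is read from it. The size of the falls differed among the UV arrays. UV replicate 1 was the lowest of the UV arrays in all 12 members lower by over 1. It was the lowest in 72.5% of the 803 such sets of the whole array and in 36.3% of all sets. The median change of these 12 members against the dark mean was -2.17, -1.64 and -1.89 on UV arrays 1, 2 and 3. The SD over the 3 UV arrays ran from 0.13 for model 337 to 0.71 for model 318.

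**Figure D3:**
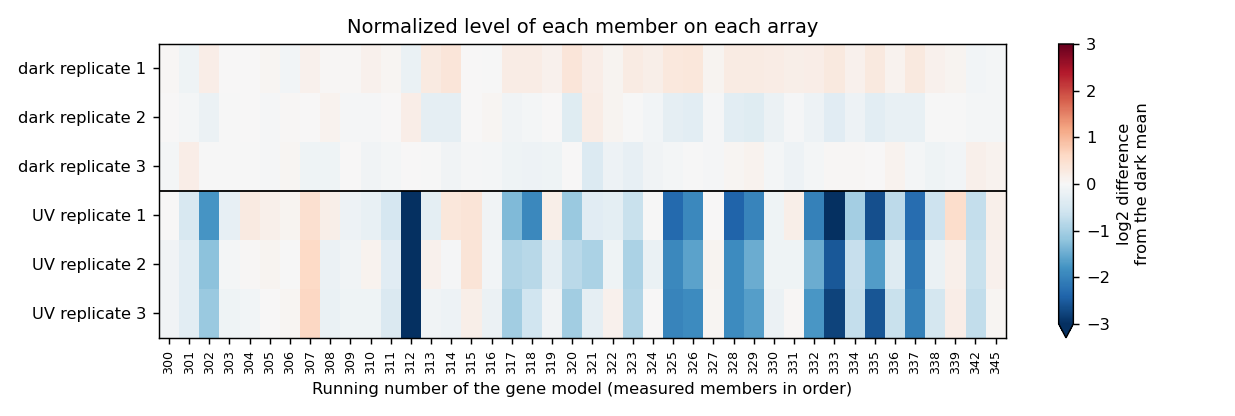
Rows are the 6 arrays and columns the 42 members in running order, and colour gives the normalized log2 difference from the mean of the dark arrays, with values below -3 drawn at the end of the scale. Blue columns after UV are interleaved with pale ones, and UV replicate 1 has the lowest value in all 12 members lower by over 1, beyond the end of the scale for model 312.

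The members lower by over 1 also varied among the dark arrays. The same dark arrays enter the change by which these members were picked, so this spread is not independent of that choice. Of the 12 members lower by over 1, dark replicate 1 was the highest dark array in 11 and dark replicate 2 the lowest in 9, on the normalized scale. Over all sets these shares were 37.1% and 29.8%, and over the 803 sets lower by over 1 they were 52.1% and 32.8%. The exceptions among the 12 were models 312, 317 and 318, and the other 9 had both dark replicate 1 highest and dark replicate 2 lowest, as did 17.3% of all sets and 24.3% of the 803. The median SD among the dark arrays was 0.30 on the log2 scale for these 9 models, 0.27 for all 12 and 0.10 for the 22 members not called lower. It was 0.09 for all sets, 0.13 for the 803 and 0.10 for all sets with a dark level in the range of the 12. The 9 were singled out after their values had been seen, so no test is given. Some sets of the 9 may share signal, as described for models 325 and 328, and are then not separate observations.

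**Figure D4:**
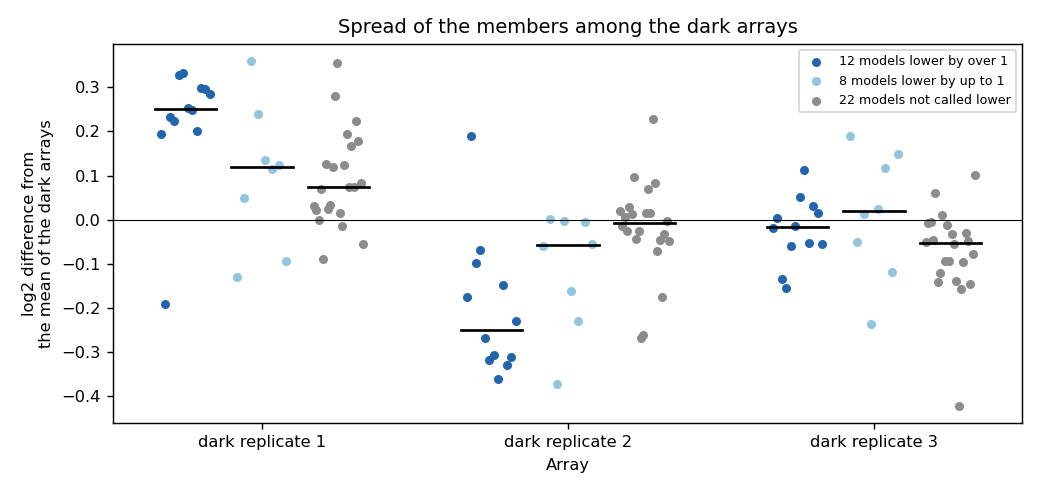
The vertical axis is the normalized log2 difference of each dark array from the mean of the 3 dark arrays, with 1 point per member and a black bar at the median. The 12 members lower by over 1 have medians of 0.25 in dark replicate 1 and -0.25 in dark replicate 2, against 0.07 and -0.01 for the 22 members not called lower.

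The agreement of the probes within a set was compared as well. The coefficient of variation over the 4 probes of a set is deposited for each array. It was smaller after UV than in the dark in 15 of the 20 members called lower, with medians of 0.494 in the dark and 0.264 after UV. It was smaller after UV in 6 of the 22 other members, whose medians were 0.236 and 0.242. Over all sets it was smaller in 43.2%, with medians of 0.408 and 0.415. Among sets lower by over 1, it was smaller in 9 of the 12 members, with medians of 0.542 and 0.360. In all 803 sets lower by over 1 it was smaller in 51.7%, with medians of 0.466 and 0.457. Above background on all 6 arrays were 8 of the 20 members called lower, 7 of the 12 lower by over 1 and 86.7% of the 803. These groups thus also differ in detection, and its part in the coefficients was not tested. Of the 20, the coefficient was larger after UV in models 312, 318, 335, 338 and 342. In model 312 the medians were 0.485 in the dark and 0.565 after UV.

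Along the order, the fall neither started at model 300 nor ended at model 345. Just outside the start, CHR3_JGVV38_299_T01 had 2119, 1495 and 2059 units in the dark and 1258, 1428 and 1400 after UV. Just inside, model 300 was at background with 1389, 1239 and 1399 units against 1116, 1233 and 1111. The change of the model outside was -0.45 (called lower), and model 300 was not called. At the other end, model 345 had 11662, 9561 and 12249 units in the dark and 10874, 11266 and 10647 after UV, with overlapping groups and a change of 0.12. Just outside, CHR3_JGVV38_346_T01 had 2176, 1709 and 1623 units in the dark and 1154, 1367 and 1438 after UV, a change of -0.48 that was not called.

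The limits of the fall were then followed outward, ending a stretch where 3 measured models in a row were not called lower. This rule was set after the data had been seen. By it, 1 stretch ran from model 288 to model 302, with 9 of 12 models lower and a median of -0.72. After the gap from 303 to 310, models 311 and 312 made a short stretch. The main stretch ran from 317 to 357, with 22 of 36 models lower, 1 higher and a median of -0.50. Its calls at the far end were small, at -0.23, -0.26 and -0.28 for models 353, 356 and 357. From 350 to 359, 0 of 9 models were lower by over 1. Models 323 and 338, called lower within the stretch, were at background on all 6 arrays. The main stretch and the one from 288 to 302 had the most calls of all stretches in block 38, and the one after them had 5. The range was chosen on this same contrast, so nothing is read from this order. In steps of 10 running numbers, 0 of 9 models were called lower from number 260, 2 of 8 from 270, 3 of 10 from 280 and 5 of 7 from 290. Within the range the counts were 2 of 10 from 300, 4 of 10 from 310, 6 of 10 from 320 and 7 of 10 from 330. The step from 340, which crosses the end of the range, had 4 of 6. Beyond it, 3 of 9 were called lower from 350, 3 of 10 from 360, 3 of 10 from 370 and 2 of 10 from 380. Over all sets 20.9% were called lower, and in the rest of block 38 23.1%. Each step holds few models, and its difference from these shares was not tested.

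Several models just before the range fell by moderate amounts, and the probes within most of these sets differed. Models 288, 289, 292, 295, 296 and 297 were lower by 0.70 to 1.17 on the log2 scale, and all were above background on all 6 arrays. Their dark coefficients of variation ran from 0.738 to 1.55, so that the 4 probes of a set gave very unequal signals. The 12 members lower by over 1 had a median of 0.542. After the range, model 347 had 54564, 48813 and 54697 units in the dark and 13486, 27063 and 31442 after UV. Its UV arrays moved by -1.92, -0.92 and -0.71 against the dark mean, close to the -1.93, -0.84 and -0.60 of model 318. The intensity of model 318 was 0.466 to 0.625 times that of model 347 on the 6 arrays. Model 347 kept ratios as steady with 2 models farther on, at 1.67 to 2.11 times model 379 and 1.82 to 2.42 times model 375.

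In the 40 running numbers before the range, 10 of 34 measured models were called lower, and in the 40 after it 12 of 39. The second count fell to 5 without dark replicate 2, to 6 without dark replicate 1 or 3 and to 7 without UV replicate 2. In the rest of block 38, which runs from number 1 to 411, 81 of 351 models (23.1%) were called lower and 8 (2.28%) by over 1. On placed models of chromosome 3 outside the range, 237 of 1193 (19.9%) were called lower. The lowest change in the rest of the block was that of model 282, with 8619, 6932 and 8408 units in the dark and 1236, 1662 and 1228 after UV. That change was -2.99 (SE 0.12), and none of the 5 measured models after it was called lower. The next lowest were models 54 and 249, far from the range by number, at -1.90 (SE 0.38) and -1.31 (SE 0.14).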

How the data were processed

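The deposited file of each array holds, per probe set, a linear mean intensity of its perfect-match probes and the coefficient of variation of these probes, a ratio of SD to mean, per the file headers. Array scans were averaged per set by the authors before deposit. The image software, the genome build and the version of the annotation are not stated in any source used here. The authors' deposited value table holds log10 values for 23096 sets. Differences between its columns matched those of log10 intensity up to 1 constant per pair of arrays, so it is scaled per array. A constant per set cancels in such differences, so they cannot show how the sets were centred, and the baseline is unknown. The column medians of the value table ran from -0.0174 to 0.00998.

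Intensities were corrected with normexp (offset 50), the random-probe row included, taken to log2 and quantile-normalized. UV and dark were compared over 6 arrays with lmFit and eBayes (limma 3.58.1, R 4.3.3), without covariates, two-sided, with Benjamini-Hochberg adjustment over 29549 sets at 0.05. The SE is that of the fit. Brightness gives no read depth, and 3 arrays per group limit the precision. The members, lists and stretches were chosen with earlier results of these data known. Values on all arrays are given for members lower by over 1, those called higher and the models at either end of the range, besides model 342, the 3 lowest models in the rest of the block (1 of them in full) and model 347, which was added after its values were seen. Marker lists could not be used, since 0 identifiers matched. Same-numbered arrays were not paired: their deviations correlated at -0.0437, -0.0587 and -0.0333. Alternatives covered background, scaling, the value table, dim sets, the variance model, the replicate block and each array left out.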

Additional observations from a re-analysis of the deposited data

How the results depend on the processing

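With the test limited to sets above the 25th percentile of brightness, 18 members were tested, 8 were called lower, 1 higher, and the median change was -0.13 (26.5% of all 22161 sets lower, median -0.06). Among sets above background on all arrays, a limit chosen after seeing the data, 21 members were tested, 8 were called lower (7 by over 1), and the median was -0.13 (24.9% of all sets lower, median -0.05). In the authors' value table, 22 members were tested, 12 were called lower and the median was -0.84 (26.7% of all 23096 sets lower, median -0.07). In these settings fewer members were tested. The median was -0.34 with median centring, -0.16 without background correction, -0.48 without scaling between arrays and -0.42 with the random-probe mean subtracted (also chosen after seeing the data); the cause was not tested. Without scaling, 0 members and 2939 of all sets were called higher in limma, and the median change of all sets moved from -0.05 to -0.17. With any 1 array left out there were 16 to 18 members called lower, 10 to 12 by over 1, 1 to 2 higher, and a median of -0.32 to -0.23. It gave 7 to 9 lower before the range and 5 to 11 after it, and over all sets 3986 to 5645 lower and 3471 to 4199 higher. With the replicate number as a block, 17 members were called lower, 11 of them by over 1, against 16.3% of all sets called lower (4821). A limit of mean plus 3 SD left 16 members above background on all arrays instead of 21. Over 213 values of the 14 models lower by over 1 or called higher, 0 changed sign and 13 lost the call, all of them for models 307, 315 and 318. Signal near background limits the size of change for dim members.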
